A study of Mus musculus with 27 samples.

Results

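The transcripts of 10 cytokine receptor chains, Il2ra, Il2rb, Il2rg, Il7r, Il15ra, Il4ra, Il21r, Il12rb1, Il12rb2 and Il18r1, were followed in WT mouse CD8 T cells and in cells with a transgene that depletes or overexpresses let-7 miRNAs. The let-7 miRNAs themselves were not measured here. The 10 genes were taken by symbol and not by a cutoff on their levels, from tables of 35275 genes, with earlier results of these data known. RNA-seq had been done on 27 libraries, 3 for each of 9 groups made of 3 genotypes at 3 stages. All cells were P14+, that is, they carried a transgenic T cell receptor for a peptide of LCMV, and came from mice on a Rag2-/- background, which rearrange no antigen receptor of their own. WT P14+ cells served as controls. Lin28bTg P14+ cells, here lin28Tg, carried a Lin28b transgene whose protein blocks the maturation of let-7, and the promoter that drives it is not given in the sources used here. Let-7Tg P14+ cells, here let-7Tg, carried a let-7g transgene that doxycycline induces. Mice of either sex aged 6 to 10 weeks were used for cultures, and all animals, controls included, drank doxycycline for 4 days beforehand. Naive cells were untreated. The 12 h cells had been activated with anti-CD3 antibody at 2 µg/mL and anti-CD28 antibody at 5 µg/mL. Cytotoxic T lymphocytes (CTLs) were taken on day 5 after culture on irradiated splenocytes with 2 µg/mL of anti-CD3 antibody, with IL-2 at 100 U/mL from 48 h on. Both cultures held doxycycline at 2 µg/mL, so that the stages differed in time, stimulus and added cytokine together.

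Cytokine receptors of the common gamma chain family are built from shared and private chains. Il2rg encodes the common gamma chain, which pairs with Il7r to bind IL-7, with Il4ra to bind IL-4, with Il21r to bind IL-21, and with Il2rb to bind IL-2 or IL-15. Il2ra (CD25) adds high affinity for IL-2 and is induced by antigen, whereas Il15ra captures IL-15 and presents it to neighbouring cells. Ligand binding activates JAK kinases and STAT factors, STAT5 for IL-2, IL-7 and IL-15, STAT6 for IL-4 and STAT3 for IL-21. Il12rb1 and Il12rb2 form the receptor for IL-12, which signals through STAT4, and Il18r1 binds IL-18, which signals through MyD88. Naive T cells live on IL-7, and effector CD8 T cells lose Il7r and gain the receptors for IL-2 and IL-12.

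Since let-7 was the miRNA family altered in these cells, its sequences were compared with the receptor transcripts. RefSeq (GRCm38.p6) holds 11 mature sequences from 13 genes that share the let-7 seed, bases 2 to 8, shown in capitals in 4 of them, let-7g being the one in the transgene.
let-7g-5p: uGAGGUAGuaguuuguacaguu
let-7a-5p: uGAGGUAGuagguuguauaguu
let-7d-5p: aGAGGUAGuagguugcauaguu
let-7i-5p: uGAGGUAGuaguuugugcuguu
The gene of let-7g-5p lies on the plus strand at chr9:106178846-106178867. A match to this seed, CTACCTC, was searched on the sense strand of the annotated 3′ UTRs. It occurred in 1 of the 10 receptor transcripts, against 8.84% of 20969 genes with a 3′ UTR. That transcript was Il4ra, whose 2420-base 3′ UTR holds the 7 letters at base 1765, shown in capitals with the bases around them, from chr7:125578808-125578830 (plus strand, GRCm38).
Il4ra site: ccatccaagatCTACCTCctgtg
A match of letters describes the sequence and does not show binding. The 3′ UTRs searched ranged from 185 bases in Il12rb2 to 3411 bases in Il2ra.

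Promoters were searched on both strands for the STAT motif TTCNNNGAA, because STAT factors act downstream of these receptors. RefSeq promoters of 300 bases, from 250 before to 50 after the start site, were matched for 8 of the 10 genes, with 11 promoters in all. The motif was present in 3 of the 11, against 8.30% of 32851 promoters, and is shown in capitals.
Il18r1, chr1:40465777-40465805: tcggggttagTTCTGGGAActgtggagct
Il18r1, chr1:40465844-40465872: agtacaggtcTTCCCAGAActgaaagctt
Il12rb2, chr6:67376293-67376321: gttcccttttTTCTCAGAAccgcactaag
Il7r, chr15:9530000-9530028: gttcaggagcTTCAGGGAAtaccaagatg
The Il18r1 gene lies on the plus strand, and Il12rb2 and Il7r lie on the minus strand, with sequences written along the gene. The Forkhead motif TGTTTAC was present in the promoter of Il21r and in 3.65% of all promoters. Il12rb1 and Il2rb were not matched.

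The genes are spread over 7 chromosomes, and 2 pairs are neighbours. Il2ra (chr2:11642807-11693193) is followed by Il15ra (chr2:11705290-11734317) after 12.1 kb on the same strand. Il4ra (chr7:125552120-125579474) is followed by Il21r (chr7:125603429-125633570) after 24.0 kb, also on the same strand. Il2rb (chr15:78479256-78495271) and Il7r (chr15:9505788-9530176) share a chromosome but are far apart. Il2rg (chrX:101264378-101268255), Il12rb1 (chr8:70808449-70821424), Il12rb2 (chr6:67291318-67376188) and Il18r1 (chr1:40465552-40500854) complete the set. Coordinates are those of GENCODE M21 on GRCm38 and span the whole gene, introns included.

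Libraries held 13862706 to 23591069 counted reads, at which 10 reads on a gene of 2 kb equal 0.212 to 0.361 FPKM, that is, fragments per length of gene and per total of counted fragments. Lin28b was at a mean of 63.5 FPKM in naive, 10.9 in 12 h and 19.4 in day 5 lin28Tg cells and at 0.0590 FPKM or less in every other library. Col1a1, the locus that holds the let-7g transgene, was at a mean of 13.3 to 40.7 FPKM in let-7Tg groups and 3.77 or less elsewhere. The 6 markers of CD8 T cells summed to 2775 to 3375 FPKM in naive, 740.1 to 914 in 12 h and 1648 to 2093 in day 5 libraries. Other blood cells were also present in naive libraries, most in lin28Tg, where 10 myeloid and dendritic cell markers summed to 473 to 1559 FPKM, against 113 to 190.0 in WT and 102 to 218 in let-7Tg. There, 5 erythroid markers summed to 375 to 1494 FPKM, against 113 to 218 in WT and 1.52 to 35.3 in let-7Tg, and 5 NK cell markers to 81.4 to 226, against 34.2 to 78.7 and 33.1 to 51.3. At day 5, myeloid markers summed to 12.3 FPKM or less. The second WT and the second let-7Tg libraries at 12 h stood apart, with 112 and 191 genes at least 2-fold away from both other libraries of their group, against 5 to 28 in the other libraries of those groups. These libraries also kept more of 408 genes that were chosen for a large fall from naive to 12 h in lin28Tg cells. The median log2 level of these genes was 0.98 in both, against 0.24 to 0.50 in the other WT and let-7Tg libraries. All 3 lin28Tg libraries at 12 h were at 0.60 to 0.94, but the genes were chosen from these values, so nothing is read from their place. Naive lin28Tg libraries held the most markers of other blood cells, whose part in this gene list was not tested. By the same count the third WT library (306 genes), the third let-7Tg library (183 genes) and the first and second lin28Tg libraries (109 and 138 genes) stood apart on day 5, as did the first and second naive lin28Tg libraries (196 and 168 genes).

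**Figure D1:**
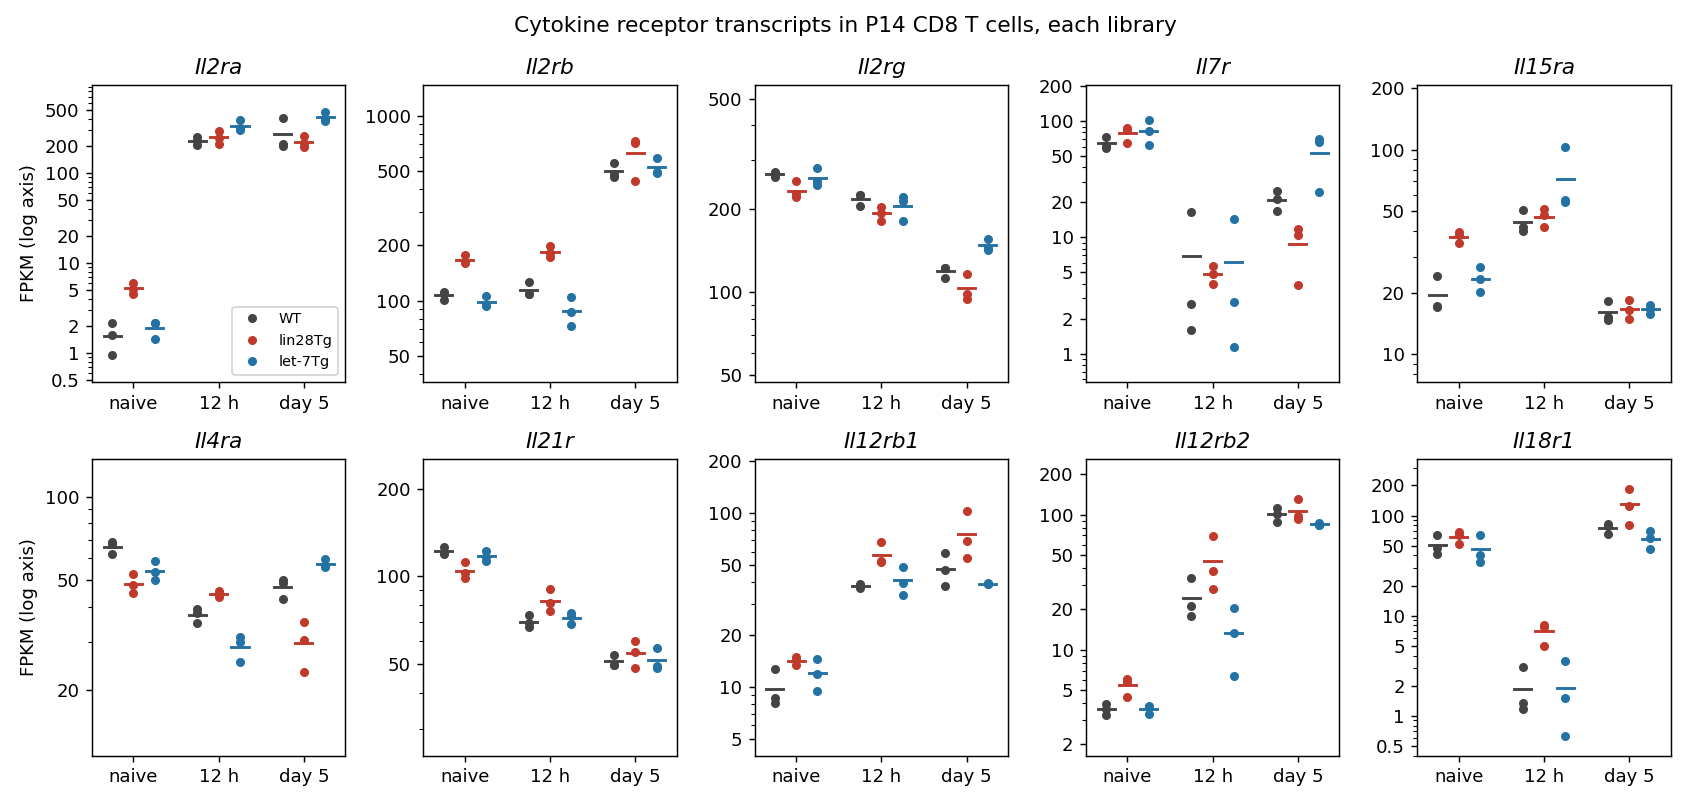
Levels of the 10 receptor transcripts in each of 27 libraries, in FPKM on a log axis, by stage and genotype, with a bar at the mean of 3 libraries. Il2ra lies under 6 FPKM in all naive libraries and above 190 FPKM in all others, and Il18r1 is lowest at 12 h in all 3 genotypes.

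Activation remodelled this set of receptors in each genotype. In WT cells 12 h of activation raised Il2ra, Il15ra, Il12rb1 and Il12rb2 and lowered Il7r, Il18r1, Il4ra and Il21r, so that 8 of 10 passed the test, where 71.0% of all 14453 genes tested passed. In lin28Tg cells 7 of 10 passed (73.6% of all genes) and in let-7Tg cells 8 of 10 (69.4%). From 12 h to day 5, 7 of 10 passed in WT cells (67.3% of all genes), 7 in lin28Tg cells (66.5%) and 8 in let-7Tg cells (67.1%). Between naive and day 5 WT cells 8 of 10 passed, where 65.5% of all genes did. These shares are close to those of all genes, and nothing is read from the number that passed. Changes between stages were estimated with limma on log2 of scaled FPKM plus 0.5, with Benjamini-Hochberg adjustment over all genes, and are given as log2 fold change ± SE. The FPKM printed are those of each library, unscaled. Without scaling between libraries, the median change of all genes from naive to 12 h would be lower by 0.20 to 0.21 and that from 12 h to day 5 higher by 0.05 to 0.12. Measured in bulk RNA, a lower level can come from fewer expressing cells or from less RNA per cell, which cannot be told apart.

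Il2ra had the largest range of the set. Naive WT libraries were at 2.18, 0.961 and 1.57 FPKM, which rested on 36 to 91 reads, and naive let-7Tg libraries at 2.14, 1.42 and 2.17 FPKM. Naive lin28Tg libraries were at 4.59, 5.98 and 5.1 FPKM, all above the other naive libraries. At 12 h it reached 247, 204 and 228 FPKM in WT, 211, 242 and 289.6 in lin28Tg and 314, 389 and 301 in let-7Tg cells, an increase of 129-fold, 49.9-fold and 159-fold. On the log2 scale these were 7.01 ± 0.23, adjusted p = 9.97e-17 in WT and 5.64 and 7.32 in the other genotypes. Every activated library thus lay far above every naive one. Day 5 libraries were at 210.3, 199 and 406 FPKM in WT, 195, 254 and 216 in lin28Tg and 394, 379 and 473 in let-7Tg cells, and no genotype passed the test between 12 h and day 5 (log2 changes of -0.21 to 0.19). Ordered by mean, the groups ran from let-7Tg day 5 (415 ± 50.5 FPKM, SD, n = 3) to naive WT (1.57 ± 0.608), a ratio of 264, and neighbours within the 6 activated groups overlapped.

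Il2rb, the signaling chain that IL-2 and IL-15 share, was high from the start and rose late. In naive libraries it was at 111, 101 and 108 FPKM in WT, 177, 162 and 160.1 in lin28Tg and 106, 94.2 and 94.7 in let-7Tg cells. After 12 h they were at 126, 109 and 109 FPKM in WT, 172, 182 and 197 in lin28Tg and 104, 86.5 and 72.8 in let-7Tg cells. Early change was small, with 0.32 ± 0.15, adjusted p = 0.0733 in WT, and the change in lin28Tg cells (0.36 ± 0.15, adjusted p = 0.042) did not pass without scaling, where it was 0.14 (adjusted p = 0.38). Day 5 libraries were at 486, 468 and 556 FPKM in WT, 445, 733 and 710.0 in lin28Tg and 499, 491 and 593 in let-7Tg cells. The rise from 12 h to day 5 was 4.03-fold in WT, 3.22-fold in lin28Tg and 5.53-fold in let-7Tg cells (WT 2.01 ± 0.15, adjusted p = 1.57e-10). By mean, the 3 day 5 groups came first and overlapped one another, lin28Tg cells at 12 h and naive came next and overlapped, and the other 4 groups, from 115 to 87.9 FPKM, overlapped with their neighbours.

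Il2rg, the common gamma chain, was the most evenly expressed of the IL-2 receptor chains and fell late. Naive libraries were at 272, 260.5 and 268 FPKM in WT, 251, 219.9 and 226 in lin28Tg and 251, 280.0 and 244 in let-7Tg cells. At 12 h they were at 204, 223 and 223 FPKM in WT, 203, 193 and 181 in lin28Tg and 214, 181 and 221 in let-7Tg cells. The scaled change from naive was -0.08 in WT, -0.06 in lin28Tg and -0.11 in let-7Tg cells and did not pass the test, whereas without scaling it was -0.30, -0.27 and -0.33 and passed in each genotype, so the call at 12 h depends on scaling. Day 5 libraries were at 122, 113 and 122 FPKM in WT, 94.6, 116 and 98.6 in lin28Tg and 145, 155 and 142 in let-7Tg cells. Between 12 h and day 5 Il2rg fell in each genotype, by 1.97-fold in WT, 1.94-fold in lin28Tg and 1.51-fold in let-7Tg cells. The order of means followed the stages, from 267 ± 5.89 FPKM in naive WT to 103 ± 11.3 in day 5 lin28Tg cells (SD, n = 3).

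Il15ra rose early and fell again by day 5. In naive libraries it was at 24.2, 17 and 17.3 FPKM in WT, 35.2, 39.6 and 38.3 in lin28Tg and 26.7, 20.2 and 23.4 in let-7Tg cells. At 12 h they were at 41.9, 50.8 and 40 FPKM in WT, 48, 51.2 and 41.8 in lin28Tg and 55.9, 104 and 56.6 in let-7Tg cells, and the value of 104 belonged to the let-7Tg library that stood apart. The rise was 1.39 ± 0.16, adjusted p = 9.5e-08 in WT, 1.76 ± 0.16, adjusted p = 2.16e-09 in let-7Tg and 0.53 in lin28Tg cells, where it did not pass without scaling (0.31, adjusted p = 0.12). By day 5 the genotypes had met, at 18.3, 14.7 and 15.2 FPKM in WT, 16.4, 14.9 and 18.5 in lin28Tg and 15.7, 17.5 and 16.6 in let-7Tg cells, after falls of 2.92-fold, 2.89-fold and 4.42-fold. Its neighbour Il2ra rose with it at 12 h but did not fall with it at day 5.

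Il7r, the alpha chain of the IL-7 receptor, fell within 12 h. Naive libraries were at 73.7, 58.3 and 61.2 FPKM in WT, 84.6, 64.8 and 87.6 in lin28Tg and 103, 82.1 and 62.9 in let-7Tg cells, with overlap of all 3 genotypes. At 12 h the values were 2.67, 16.6 and 1.59 FPKM in WT, 5.64, 3.94 and 4.82 in lin28Tg and 2.77, 14.4 and 1.14 in let-7Tg cells. The values of 16.6 and 14.4 came from the 2 libraries that stood apart and were more than 5-fold above the others of their groups. The fall was -3.54 ± 0.64, adjusted p = 3.5e-05 in WT, -3.70 in lin28Tg and -4.04 in let-7Tg cells. On day 5 WT libraries were at 24.9, 21.3 and 17 FPKM, all let-7Tg libraries but one were at 65.8 or above (70.7, 65.8 and 24.7), and lin28Tg libraries were at 10.5, 11.8 and 3.93 FPKM. The return from 12 h passed the test in WT (2.04 ± 0.64, adjusted p = 0.00734) and let-7Tg cells (3.41 ± 0.64, adjusted p = 6.42e-05) and not in lin28Tg cells (0.64 ± 0.64, adjusted p = 0.397). In WT cells it was lost without the third 12 h library (1.44, adjusted p = 0.067). Day 5 WT cells remained below naive ones (-1.50 ± 0.64, adjusted p = 0.0439), a call lost without any 1 of the 6 libraries (adjusted p from 0.0587 to 0.105).

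Il4ra had a different order of genotypes at each stage. In naive libraries it was at 67.5, 62 and 68.5 FPKM in WT, 52.6, 48.2 and 44.9 in lin28Tg and 58.7, 53.5 and 50 in let-7Tg cells. At 12 h they were at 38.1, 35.1 and 39.3 FPKM in WT, 44.4, 43.5 and 45.7 in lin28Tg and 31.1, 29.9 and 25.4 in let-7Tg cells, with no overlap between genotypes. On day 5 they were at 48.7, 42.7 and 50.1 FPKM in WT, 23.3, 35.2 and 30.4 in lin28Tg and 55.6, 59.6 and 56.2 in let-7Tg cells, again without overlap but in the reverse order of lin28Tg and let-7Tg. It fell at 12 h in WT (-0.59 ± 0.12, adjusted p = 0.000131) and let-7Tg cells (-0.68 ± 0.12, adjusted p = 2.65e-05), while lin28Tg cells gave 0.09 ± 0.12, adjusted p = 0.497 (-0.12 without scaling). From 12 h to day 5 it rose in let-7Tg cells (0.86 ± 0.12, adjusted p = 1.37e-06), fell in lin28Tg cells (-0.65 ± 0.12, adjusted p = 5.21e-05) and gave 0.21 ± 0.12, adjusted p = 0.126 in WT cells. Its whole range was small, 66 to 28.8 FPKM by group mean, a ratio of 2.30.

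Il21r, its neighbour on chromosome 7, was highest in naive and lowest in day 5 cells. Naive libraries were at 120.4, 119.6 and 127 FPKM in WT, 112, 103 and 98.7 in lin28Tg and 116, 122 and 113 in let-7Tg cells. At 12 h it was at 67, 69.2 and 74 FPKM in WT, 76, 81.2 and 90.3 in lin28Tg and 73.1, 68.8 and 74.8 in let-7Tg cells, highest in lin28Tg. On day 5 it was at 49.9, 53.7 and 49.9 FPKM in WT, 48.7, 55.1 and 60 in lin28Tg and 49.2, 56.8 and 48.6 in let-7Tg cells. The fall at 12 h passed the test in WT (-0.58 ± 0.09, adjusted p = 7.02e-06) and let-7Tg cells (-0.47), and in lin28Tg cells (-0.13 ± 0.09, adjusted p = 0.218) it did not pass, but did without scaling (-0.34). All 3 genotypes fell from 12 h to day 5, with log2 changes of -0.56, -0.65 and -0.61, to levels that overlapped.

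Both chains of the IL-12 receptor were low in naive cells and rose with activation. Il12rb1 was at 12.6, 8.63 and 8.03 FPKM in naive WT, 14.8, 14.2 and 13.4 in lin28Tg and 11.9, 9.51 and 14.5 in let-7Tg cells. It stood at 37.9, 39.1 and 37.2 FPKM in WT, 52.1, 53.1 and 68.3 in lin28Tg and 34, 49.3 and 39.8 in let-7Tg cells at 12 h, a rise of 4.42-fold, 4.59-fold and 3.88-fold. No further change passed the test, with day 5 libraries at 58.8, 46.9 and 38.1 FPKM in WT, 55.4, 103 and 69.6 in lin28Tg and 38.9, 39.6 and 38.9 in let-7Tg cells. Il12rb2, the chain that recruits STAT4, rose in 2 steps. It was at 3.29, 3.67 and 3.94 FPKM in naive WT, 4.43, 6.1 and 5.77 in lin28Tg and 3.78, 3.36 and 3.84 in let-7Tg cells. At 12 h it was at 33.7, 21.1 and 17.7 FPKM in WT, 28, 38.1 and 69.9 in lin28Tg and 20.2, 13.3 and 6.34 in let-7Tg cells, with wide spread within each genotype. Day 5 libraries were at 102, 113 and 88.3 FPKM in WT, 97.1, 129.5 and 92.3 in lin28Tg and 83.8, 86.8 and 84.2 in let-7Tg cells, 26-fold above naive in WT. Per length, Il12rb1 exceeded Il12rb2 in every naive library (ratios of FPKM of 2.04 to 3.84) and was below it in every day 5 library (0.416 to 0.796).

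Il18r1, the IL-18 binding chain, was present in naive cells, nearly lost at 12 h and back on day 5. In naive libraries it was at 64.6, 47.9 and 41.1 FPKM in WT, 67.7, 51.7 and 64.1 in lin28Tg and 64, 34.3 and 40.5 in let-7Tg cells. At 12 h they were at 1.34, 3.08 and 1.18 FPKM in WT, 7.76, 8.12 and 5.03 in lin28Tg and 1.51, 3.49 and 0.627 in let-7Tg cells, the lowest resting on 30 reads, and the highest WT and let-7Tg values came from the libraries that stood apart. The fall was 20.1-fold in WT (-4.33 ± 0.36, adjusted p = 2.95e-10), 7.24-fold in lin28Tg and 18.9-fold in let-7Tg cells. On day 5 libraries were at 65.4, 78.9 and 81.6 FPKM in WT, 185, 80.5 and 124 in lin28Tg and 59.6, 45.8 and 69.3 in let-7Tg cells, a return of 31.9-fold, 16.3-fold and 26-fold from 12 h. Il18r1 and Il7r both fell at 12 h, and their return by day 5 was called in all 3 genotypes for Il18r1 and in WT and let-7Tg cells for Il7r, with a Pearson r of 0.684 over the 9 group means of log2 level, 3 of which share each stage.

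**Figure D2:**
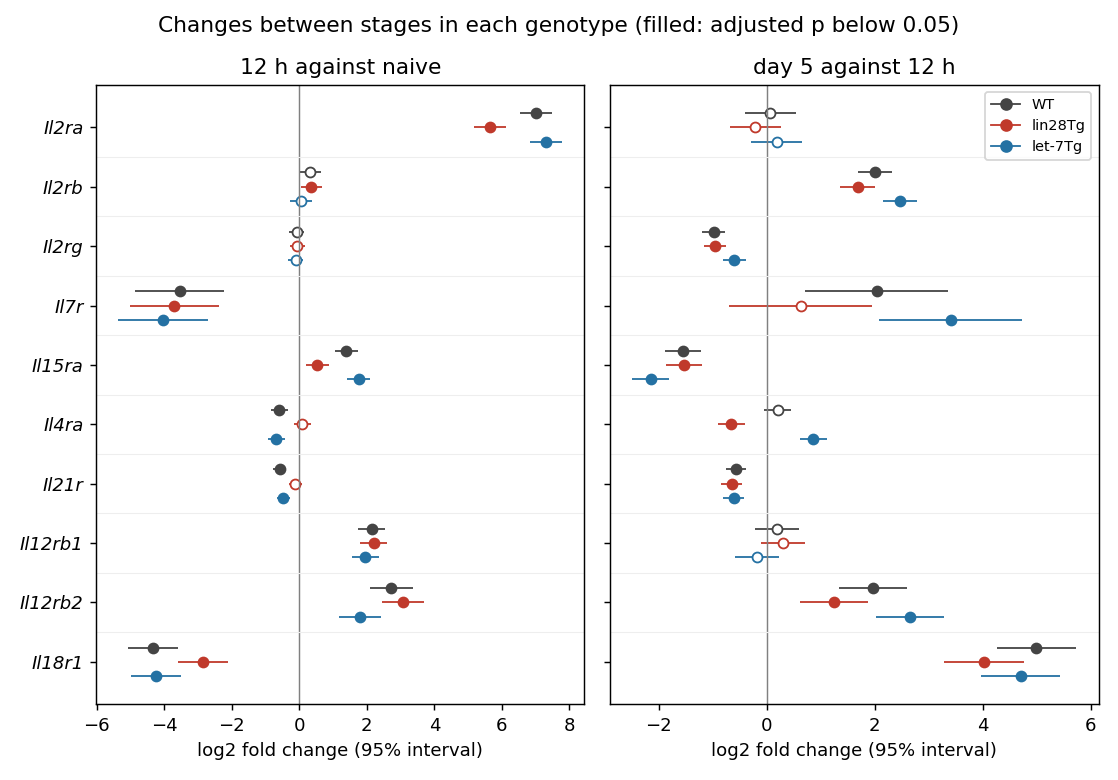
Change of each receptor from naive to 12 h (left) and from 12 h to day 5 (right) in each genotype, as log2 fold change with 95% intervals from limma, filled where the adjusted p was below 0.05. Il2ra rises most at 12 h, and Il18r1 falls at 12 h and rises most by day 5 in all 3 genotypes.

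In naive cells lin28Tg mice had more transcript of the alpha and beta chains of the IL-2 receptor and of Il15ra than WT mice. Against WT, 6 of 10 receptors passed the test in lin28Tg cells, where 33.3% of 13277 genes passed, 4 of them higher and 2 lower. Il2ra was 2.8-fold higher (1.48 ± 0.23, adjusted p = 0.00164), Il15ra 1.9-fold (0.93 ± 0.14, adjusted p = 0.00138) and Il2rb 1.52-fold (0.61 ± 0.07, adjusted p = 0.000392), each without overlap of the libraries. Il12rb2 was 1.41-fold higher (0.49 ± 0.14, adjusted p = 0.0228), at under 7 FPKM in every library. Il4ra was 1.38-fold lower (-0.47 ± 0.09, adjusted p = 0.00379) and Il21r 1.19-fold lower (-0.25 ± 0.07, adjusted p = 0.0233). The calls of Il12rb2 and Il21r were each lost under 4 of the 6 ways of leaving out 1 library (adjusted p up to 0.0735 and 0.0945). Il2rg (-0.23 ± 0.08, adjusted p = 0.0521) and Il12rb1 (0.51 ± 0.18, adjusted p = 0.0519) missed the threshold although their libraries did not overlap, and Il7r and Il18r1 overlapped. The median difference of the 10 receptors was 0.38, against -0.01 over all genes.

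The sums of the myeloid and dendritic cell, erythroid and NK cell markers were higher in each naive lin28Tg library than in any naive WT library, and their part in these differences was not tested. The same held for 4 CD4 T cell markers (24.1 to 83.5 against 12.9 to 23.8 FPKM), 5 B cell markers (28.8 to 33.0 against 18.8 to 21.4) and 5 stromal markers (2.72 to 9.47 against 1.08 to 1.42). Of the markers that define myeloid cells, Lyz2 was at a mean of 286.5 FPKM in naive lin28Tg cells, against 25.6 in WT, and Csf1r at 32.3 against 1.56. The IL-15 and IL-18 transcripts themselves were higher in these libraries, Il15 at 5.12 against 1.28 FPKM and Il18 at 9.46 against 0.443 FPKM. By 12 h the sums of myeloid markers had fallen to 26.6 to 55.9 FPKM in lin28Tg and 15.7 to 38.1 in WT libraries, which overlap. Erythroid marker sums there were 60.2 to 527 against 19.7 to 81.3 FPKM, which overlap, and NK cell marker sums were 12.5 to 29.8 against 7.24 to 9.15 FPKM, which do not. Their part in the differences at 12 h was not tested.

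Overexpression of let-7 in naive cells gave no receptor that passed the test against WT. By limma 0 of 10 passed, where 0.934% of all genes did, 2 had an unadjusted p below 0.05 and voom on the recovered reads also called 0. The change nearest to the threshold was that of Il4ra, whose let-7Tg libraries all lay below the WT libraries (-0.33 ± 0.09, adjusted p = 0.11, 95% interval -0.53 to -0.14). Il2rb gave -0.17 ± 0.07, adjusted p = 0.302 (interval -0.33 to -0.01) and Il2ra 0.21 ± 0.23, adjusted p = 0.733 (interval -0.30 to 0.72), so that a change of Il2ra as large as that in lin28Tg cells lies outside its interval. Between lin28Tg and let-7Tg naive cells 4 of 10 passed, all higher in lin28Tg, where 43.5% of all genes passed. These were Il2rb (0.78 ± 0.07, adjusted p = 5.89e-05), Il2ra (1.27 ± 0.23, adjusted p = 0.00202), Il15ra (0.70 ± 0.14, adjusted p = 0.00307) and Il12rb2 (0.52 ± 0.14, adjusted p = 0.013), the 4 genes that were also higher than in WT, and both comparisons share the lin28Tg libraries.

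At 12 h of activation Il2rb, Il12rb1 and Il18r1 were higher in lin28Tg cells than in both WT and let-7Tg cells. In lin28Tg cells 3 of 10 receptors passed the test against WT, all higher, where 8.55% of 12239 genes passed. Il18r1 was 3.27-fold higher (1.71 ± 0.43, adjusted p = 0.0376), Il2rb 1.58-fold (0.66 ± 0.12, adjusted p = 0.0113) and Il12rb1 1.49-fold (0.57 ± 0.13, adjusted p = 0.0245), with no overlap of libraries for any of them. Il18r1 and Il12rb1 were each lost under 5 of the 6 ways of leaving out 1 library (adjusted p up to 0.141 and 0.0836). Il18r1 was also lost with a pseudocount of 0.1 FPKM (adjusted p = 0.0517), without the filter (adjusted p = 0.0853) and without the intensity trend (adjusted p = 0.0511). Without both libraries that stood apart Il18r1 was 2.05 (adjusted p = 0.00351). These libraries held the highest WT and let-7Tg values of Il18r1, and no lin28Tg library was left out. A larger difference was thus fixed by this choice and adds no support. Il2ra, which had differed in naive cells, gave 0.11 ± 0.13, adjusted p = 0.649 with overlapping libraries. Il7r could not be resolved, with a 95% interval of -1.79 to 2.01 around 0.11. It was 1.02 (adjusted p = 0.0652) without both libraries that stood apart, which also held its highest WT and let-7Tg values.

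In let-7Tg cells at 12 h 1 of 10 receptors passed the test against WT, where 3.42% of all genes passed. Il4ra was 1.32-fold lower (-0.40 ± 0.08, adjusted p = 0.0398), and it did not pass with the replicate number as a block (adjusted p = 0.0557), without both libraries that stood apart (-0.46, adjusted p = 0.0593) or under 5 of the 6 ways of leaving out 1 library (adjusted p up to 0.147). With the block, under which 2.02% of all genes passed, Il15ra passed instead (0.62, adjusted p = 0.0485), and it gave 0.45 (adjusted p = 0.0678) without the 2 libraries that stood apart. Il2ra (0.54 ± 0.13, adjusted p = 0.052) and Il2rb (-0.42 ± 0.12, adjusted p = 0.0945) had libraries that did not overlap with WT, Il2ra above and Il2rb below, and missed the threshold.

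Between lin28Tg and let-7Tg cells at 12 h 6 of 10 passed, 5 higher and 1 lower in lin28Tg, where 31.2% of all genes passed. Il2rb was 2.11-fold higher (1.08 ± 0.12, adjusted p = 0.000334), Il4ra 1.55-fold (0.63 ± 0.08, adjusted p = 0.000642), Il12rb1 1.41-fold (0.50 ± 0.13, adjusted p = 0.0162), Il12rb2 3.42-fold (1.77 ± 0.43, adjusted p = 0.0133) and Il18r1 3.54-fold (1.82 ± 0.43, adjusted p = 0.0112). Il2ra was 1.35-fold lower (-0.43 ± 0.13, adjusted p = 0.0294), a call lost without both libraries that stood apart (-0.33, adjusted p = 0.065), without the filter (adjusted p = 0.0606) and without the first lin28Tg (0.107), second lin28Tg (0.0950), first let-7Tg (0.0526) or second let-7Tg library (0.0899). Il12rb1 was lost without the third lin28Tg library (0.39, adjusted p = 0.0514). Without the 2 libraries that stood apart Il7r (1.18, adjusted p = 0.0206) and Il15ra (-0.27, adjusted p = 0.046) passed. The let-7Tg library left out held the highest let-7Tg value of Il7r, and no lin28Tg library was left out. A larger difference of Il7r was thus fixed by this choice and adds no support. The FPKM of Il2ra over that of Il2rb was 1.23 to 1.47 in lin28Tg, 1.87 to 2.09 in WT and 3.01 to 4.50 in let-7Tg libraries, ranges that do not overlap. This ratio was chosen after the values were seen and carries no test.

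On day 5 lin28Tg and let-7Tg CTLs differed from each other in Il7r, Il4ra, Il2rg, Il12rb1 and Il18r1, while few receptors were called against WT. The 5 NK cell markers summed to 4412 to 6109 FPKM in lin28Tg, 91.1 to 795 in WT and 15.5 to 116 in let-7Tg CTLs, a list that holds Gzma, which CTLs express, and its part in the differences was not tested. By limma 0 of 10 receptors passed the test in lin28Tg CTLs against WT, where 4.26% of 13030 genes passed, 4 had an unadjusted p below 0.05 and voom called 1 (4.26% of all genes). With the replicate number as a block, which pairs libraries at day 5, 2 passed, where 13.4% of all genes did, Il7r (-1.30, adjusted p = 0.0112) and Il4ra (-0.63, adjusted p = 0.0275), both lower and with no overlap of libraries. Without the block these gave adjusted p = 0.159 and 0.0525. In let-7Tg CTLs 0 of 10 passed against WT, where 0.990% of all genes passed, 3 had an unadjusted p below 0.05, voom called 0 and the block called Il7r (1.16, adjusted p = 0.0343, without the block 0.322), where it called 3.95% of all genes. Il2ra in let-7Tg CTLs was 0.64 ± 0.26, adjusted p = 0.346 above WT, and without the third WT library, which held 406 FPKM where the others held 199 and 210.3, it was 0.98 (adjusted p = 0.0174).

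When lin28Tg CTLs were set against let-7Tg CTLs, 5 of 10 receptors passed, 2 higher and 3 lower in lin28Tg, where 21.8% of all genes passed, and with the block 7 passed, where 36.1% of all genes did. Il7r was 5.48-fold lower in lin28Tg CTLs (-2.45 ± 0.46, adjusted p = 0.00571), Il4ra 1.82-fold (-0.86 ± 0.15, adjusted p = 0.00446) and Il2rg 1.35-fold (-0.43 ± 0.10, adjusted p = 0.0137). Il18r1 was 2.27-fold higher (1.18 ± 0.27, adjusted p = 0.0133) and Il12rb1 1.99-fold (0.99 ± 0.22, adjusted p = 0.013). With the block Il2ra (-0.81, adjusted p = 0.0196) and Il12rb2 (0.40, adjusted p = 0.0171) passed as well, and without it they gave 0.0535 and 0.0666. Il15ra did not pass, with an interval of -0.18 to 0.35, nor did Il21r (-0.06 to 0.41) or Il2rb (-0.12 to 0.76), although Il2rb passed without the first lin28Tg library (0.57, adjusted p = 0.0155). Il2rg and Il18r1 were lost without the second let-7Tg library (adjusted p = 0.0582 and 0.0537), and Il2rg also without the third lin28Tg library (adjusted p = 0.0569).

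**Figure D3:**
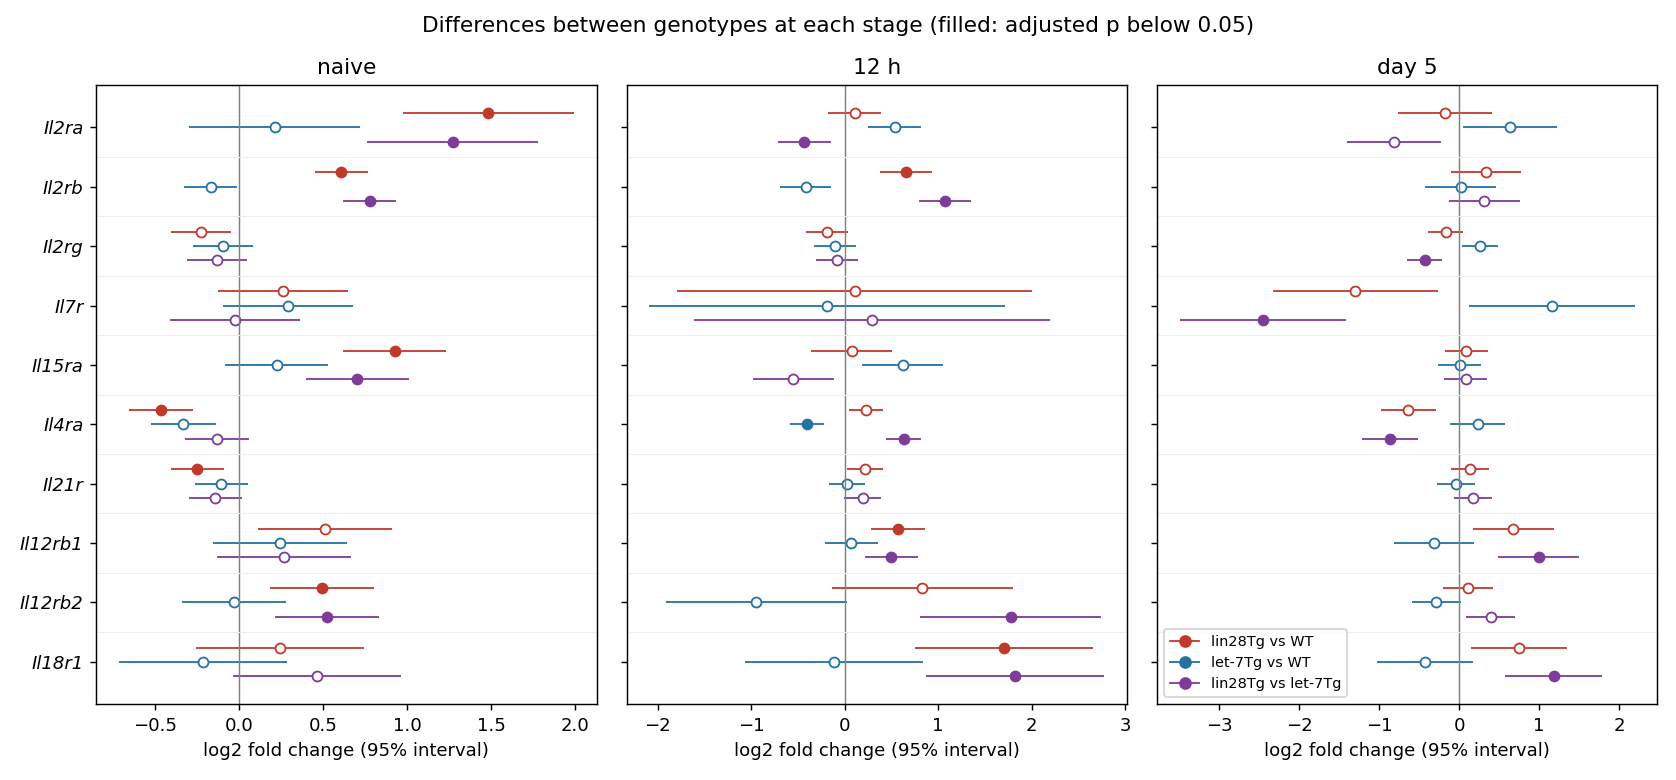
Differences between genotypes in naive, 12 h and day 5 cells for each receptor, as log2 fold change with 95% intervals from limma, filled where the adjusted p was below 0.05. Il2ra, Il2rb and Il15ra are higher in naive lin28Tg cells than in both other genotypes, as are Il2rb, Il12rb1 and Il18r1 at 12 h, and Il7r and Il4ra are lower in lin28Tg than in let-7Tg CTLs on day 5.

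Whether the effect of genotype itself changed between stages was tested in 1 model of all 27 libraries. For lin28Tg against WT, 4 of 10 receptors passed between naive and 12 h, where 8.12% of all genes passed. The effect on Il2ra went from 1.48 in naive cells to 0.11 at 12 h, a difference of -1.37 ± 0.32, adjusted p = 0.0113, and that on Il15ra from 0.93 to 0.08 (-0.86 ± 0.23, adjusted p = 0.0238). The effect on Il4ra went from -0.47 to 0.23 (0.69 ± 0.17, adjusted p = 0.0155) and that on Il21r from -0.25 to 0.22 (0.46 ± 0.13, adjusted p = 0.0341), and their values at 12 h were not called themselves (adjusted p = 0.12 and 0.16). With voom on the recovered reads, under which 1.18% of all genes passed, Il4ra was the 1 receptor that passed, and Il2ra (-1.67, adjusted p = 0.0957), Il15ra (-0.88, adjusted p = 0.0727) and Il21r (0.46, adjusted p = 0.0856) did not. The calls of Il15ra and Il21r were also lost under many of the ways of leaving out 1 library (adjusted p up to 0.0721 and 0.106). Without both libraries that stood apart Il18r1 passed too (1.81, adjusted p = 0.012), against 1.47 ± 0.50, adjusted p = 0.0767 with them, and Il21r did not (0.43, adjusted p = 0.0523). The WT library left out held the highest 12 h WT value of Il18r1, so a larger move was fixed by this choice. Between 12 h and day 5, 1 of 10 passed, where 6.50% of all genes passed. This was Il4ra again, whose lin28Tg effect went from 0.23 to -0.63 (-0.86 ± 0.17, adjusted p = 0.0026). Without the 2 libraries that stood apart Il7r passed as well (-2.31, adjusted p = 0.0143). The WT library left out held the highest 12 h WT value of Il7r, so a larger move was again fixed by this choice.

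For let-7Tg against WT no receptor passed such a test. Between naive and 12 h 0 of 10 passed by limma, where 0.0761% of all genes passed, 1 had an unadjusted p below 0.05 and voom called 0. Between 12 h and day 5 0 of 10 passed, where 1.43% of all genes passed, 4 had an unadjusted p below 0.05 and voom called 0. The nearest was Il4ra, whose let-7Tg effect went from -0.40 to 0.23 (0.65 ± 0.17, adjusted p = 0.0579), and it passed without scaling (0.66, adjusted p = 0.0362) and with median-of-ratios scaling (0.67, adjusted p = 0.0475).

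Of 8 ligand genes of these receptors, 3 were tested in naive cells, Il12b, Il15 and Il18. All 3 passed and were higher in lin28Tg than in WT cells (1.46, 1.62 and 3.21), where 33.3% of all genes passed. These lin28Tg libraries were those with more myeloid markers. At 12 h Il2 had the highest level of the 8, at 22.7 ± 4.33 FPKM in WT, 96 ± 44.1 in lin28Tg and 24.9 ± 12.4 in let-7Tg cells (SD, n = 3). It was 3.91-fold higher in lin28Tg than in WT cells (1.97 ± 0.41, adjusted p = 0.0181), with no call for let-7Tg (-0.02 ± 0.41, adjusted p = 0.983). Its mean was 0.205 FPKM or less in every naive and day 5 group. Il7 and Il21 were too low to test at any stage.

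Of a list of 22 other receptor chains, 21 were tested across stages and 17 fell from naive to 12 h in WT cells, none rose, where 71.0% of all genes passed, and the median change was -1.50 against -0.04 over all genes. The receptors of IL-6 followed this course, Il6ra with -3.53 and Il6st, the shared gp130 chain, with -2.15. Marker sums in WT libraries also fell from naive to 12 h. Those of myeloid and dendritic cells went from 113 to 190 FPKM down to 15.7 to 38.1. Those of CD8 T cells went from 2844 to 3375 FPKM down to 753 to 914. The part of cell content in the fall of these chains was not tested. In naive cells 16 of 21 passed between lin28Tg and WT, 11 higher and 5 lower, where 33.3% of all genes passed, in libraries with higher myeloid, erythroid and NK cell marker sums whose part was not tested. None passed between let-7Tg and WT by limma, where 0.934% of all genes passed. Il18rap, the accessory chain that pairs with Il18r1, was higher in lin28Tg than in WT cells at each stage, with 1.67 ± 0.37, adjusted p = 0.0084 in naive, 2.34 ± 0.23, adjusted p = 0.000615 at 12 h and 0.65 ± 0.14, adjusted p = 0.0415 on day 5. Il1rl1, the IL-33 receptor of the same gene family, was higher at each stage as well (1.32, 2.33 and 2.05), at means of 1.82 to 3.44 FPKM in lin28Tg cells. Il6st went the other way and was lower in lin28Tg than in WT cells at each stage (-1.44, -1.09 and -1.17). On day 5, 13 of 16 passed between lin28Tg and let-7Tg CTLs, 9 of them lower in lin28Tg, where 21.8% of all genes passed, with Il6ra at -2.16, Ifngr2 at -1.27 and Ifnar2 at -0.93, and Il1rl1 and Il18rap higher. Tgfbr2, a chain of the TGF-beta receptor, was lower in lin28Tg than in let-7Tg cells at 12 h (-0.60) and higher on day 5 (1.06).

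Of 14 kinases and signal transducers of these receptors, 3 passed between lin28Tg and WT cells at 12 h, all higher (8.55% of all genes passed), 3 between let-7Tg and WT cells, all lower (3.42%), and 8 between lin28Tg and let-7Tg cells, 7 of them higher in lin28Tg (31.2%). Stat5a, which carries IL-2, IL-7 and IL-15 signals, was at 203 ± 42.4 FPKM in lin28Tg, 108 ± 8.89 in WT and 71.3 ± 6.61 in let-7Tg cells at 12 h. It was 1.83-fold higher in lin28Tg than in WT cells (0.87 ± 0.13, adjusted p = 0.00433) and 1.54-fold lower in let-7Tg cells (-0.62 ± 0.13, adjusted p = 0.0415). Stat3 was higher in lin28Tg than in WT cells (0.67), and Jak3, the kinase bound to Il2rg, and Stat4, which IL-12 activates, were lower in let-7Tg than in WT cells (-0.42 and -0.51). On day 5 none passed against WT in either line by limma (4.26% of all genes passed for lin28Tg and 0.990% for let-7Tg), and 1 of 14, Stat3, was higher in lin28Tg than in let-7Tg CTLs (0.49 ± 0.10, adjusted p = 0.00817), where 21.8% of all genes passed. In naive cells 4 of 14 passed between lin28Tg and WT, close to the 33.3% of all genes that passed, with Stat5b at -0.46 and Jak2 at 0.44.

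Of 8 genes known to respond to IL-2 and STAT5, 4 passed between lin28Tg and let-7Tg cells at 12 h, all higher in lin28Tg (31.2% of all genes passed), and 3 on day 5, all lower in lin28Tg (21.8%). Cish, Socs1, Socs2 and Socs3 encode inhibitors of cytokine receptor signaling and were the 4 at 12 h (1.35, 1.01, 1.40 and 1.73). Socs3 (-0.85), Osm (-0.77) and Bcl2, which protects T cells from death (-0.73), were the 3 on day 5. Against WT at 12 h, Socs3 in lin28Tg cells was the 1 of 8 that passed (0.86 ± 0.22, adjusted p = 0.0441), where 8.55% of all genes passed. In naive cells 4 of 8 passed between lin28Tg and WT, where 33.3% of all genes passed. Socs2 (1.61), Cish (1.13) and Pim1 (0.49) were higher in lin28Tg than in WT cells and Osm was lower (-0.57).

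Of 3 genes known to respond to IL-12 and IL-18, 2 passed between lin28Tg and WT cells at 12 h, where 8.55% of all genes passed. Ifng, the interferon gamma gene, was at 1483 ± 178 FPKM in lin28Tg, 229.8 ± 62.9 in WT and 91.5 ± 35.3 in let-7Tg cells at 12 h. It was 6.51-fold higher in lin28Tg than in WT cells (2.70 ± 0.26, adjusted p = 0.000602) and 2.61-fold lower in let-7Tg cells (-1.38 ± 0.26, adjusted p = 0.0303). Gadd45g was higher in lin28Tg than in WT cells at 12 h (1.19), and all 3 were higher in lin28Tg than in let-7Tg CTLs on day 5, where 21.8% of all genes passed, with Ifng at 3.04, Gadd45g at 1.87 and Gadd45b at 0.70.

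**Figure D4:**
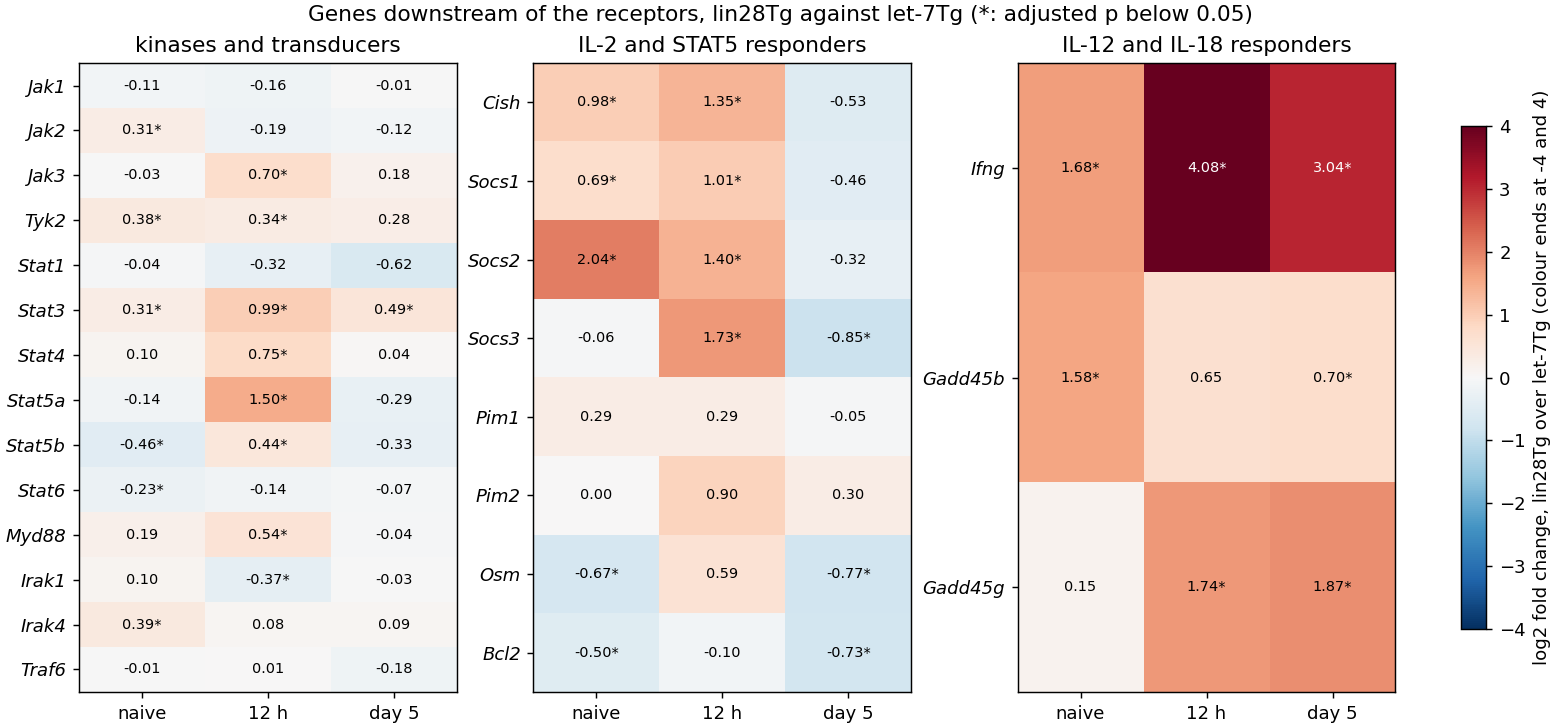
Difference between lin28Tg and let-7Tg cells (log2 fold change, colour and printed value, asterisk where the adjusted p was below 0.05) for receptor kinases and transducers, genes known to respond to IL-2 and STAT5, and genes known to respond to IL-12 and IL-18, at each stage. Stat5a and the Socs genes are higher in lin28Tg cells at 12 h, and Ifng is higher at all 3 stages.

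Of 11 transcription factors known to act on receptor genes, 7 passed between naive lin28Tg and WT cells, 3 higher and 4 lower, where 33.3% of all genes passed. Eomes and Tbx21, which induce Il2rb in CD8 T cells, were higher (1.17 ± 0.25, adjusted p = 0.0072 and 1.36 ± 0.31, adjusted p = 0.00855), and Foxo1, which acts on Il7r and Klf2, was lower (-0.60 ± 0.08, adjusted p = 0.000841). NK cells also express Eomes and Tbx21, and among naive libraries the NK cell marker sums given above were highest in lin28Tg. That list holds Gzma, which CTLs express, and the part of NK cells in these differences was not tested. On day 5, 3 of 11 passed between lin28Tg and WT CTLs, all lower, Tcf7 (-4.45 ± 0.35, adjusted p = 0.000967), Klf2 (-1.75 ± 0.37, adjusted p = 0.0352) and Ets1 (-0.64 ± 0.12, adjusted p = 0.0246), where 4.26% of all genes passed. None passed between let-7Tg and WT by limma, where 0.990% of all genes passed. Klf2 was 6.46-fold lower in lin28Tg than in let-7Tg CTLs (-2.69 ± 0.37, adjusted p = 0.00139). The part of these factors in the receptor levels was not tested. Gfi1, a repressor of Il7r, rose 7.68-fold from naive to 12 h in WT cells (2.94 ± 0.14, adjusted p = 5.28e-14).

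For each receptor the genes with the most similar course over the 9 group means of log2 level were sought among 7341 to 7342 genes with an SD of at least 0.5. Il2ra was most like Lag3 (Pearson r = 0.995), Ptma and Fgfr1op, and Il2rb most like Hist1h2bm (0.994), Dlgap5 and Hist1h4i. Il18r1 was most like Atg9a (0.995), Man2a1 and Runx3, Il12rb2 most like Rad18 (0.997), Nespas and Haus6, and Il12rb1 most like Nln (0.994), Dmwd and Galnt3. Il15ra was most like Gpr83 (0.974), Bcl2a1d and Jak2, Il7r like Pgam2 (0.984), Fmo5 and She, Il21r like Clcf1 (0.983), Dalrd3 and Frg2f1, and Il2rg like Zbtb48 (0.989), Ccdc97 and Eme2. Il4ra had the least similar partners, Ust (0.918), Ifi27l2a and Fam241a. With 9 groups that fall into 3 stages, a high r can come from the stages alone, and the values carry no test. Histone genes and Bcl2a1d have near-identical copies that could share reads, and Nespas is an antisense gene whose reads cannot be told from those of its partner where strand was not used in counting.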

How the data were processed

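RNA-seq had been done on 27 libraries of P14+ CD8 T cells, 3 biological replicates for each of 9 groups of genotype and stage. The FPKM values were deposited by the authors, who aligned reads to GRCm38 (mm10) with TopHat2 2.0.9 and Bowtie2 2.0.6, counted them with HTSeq 0.6.1 and derived FPKM from the counts. Columns of the authors' mean counts, log2 fold changes, p-values and clusters, made with DESeq2, were not used.

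Values were scaled between the libraries of a fit by trimmed means of log ratios (30% and 5% trims). These were the libraries of 1 stage for genotype comparisons and all 27 libraries for the other contrasts. Scaled values were tested with limma 3.58.1 (R 4.3.3) on log2(scaled FPKM + 0.5). Genes needed at least 10 reads in 3 libraries and 15 in all. Fold changes are on that log2 scale, which understates changes of low genes. Adjusted p-values are Benjamini-Hochberg over all genes tested, with a threshold of 0.05. Genotypes were compared within a stage. Stage contrasts and differences of genotype effects came from 1 fit of 27 libraries. Stage, culture and table differ together and cannot be told apart. Whole reads could be recovered from 462839 of 462839 values (100%, within 0.02 reads), and limma voom on these reads was an alternative. The steps were tested on simulated data. Libraries held 13862706 to 23591069 reads, which limits low genes through counting error.

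Deviations from group means of libraries with the same replicate number correlated in each pair on day 5 (r of 0.285 to 0.368 for lin28Tg and WT, 0.532 to 0.714 for let-7Tg and WT, 0.246 to 0.514 for lin28Tg and let-7Tg) and in let-7Tg and WT at 12 h (0.240 to 0.548). There the replicate number was taken to pair libraries, from the data and not from the labels.

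The members, gene lists and markers were chosen with earlier results of these data known. Every member was named, with the 3 genes most like each over group means, and any gene of a list could be named. Leaving out both 12 h libraries that stood apart, the marker values given for single genes and the ratios of receptor chains were chosen after seeing the data. Other alternatives were the pseudocount, the filter, the scaling, the replicate block, the groups in the fit, the intensity trend and leaving out each replicate. Sequences came from RefSeq and the GRCm38 genome. Python 3.11.15, NumPy 2.4.6, pandas 2.3.3 and matplotlib 3.10.9 were used.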

Additional observations from a re-analysis of the deposited data

Results flagged for a closer look

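In 5 cases the difference between lin28Tg and WT cells was itself different at 2 stages, by a test of that difference in limma over 27 libraries. Between naive and 12 h the log2 difference moved by -1.37 for Il2ra (adjusted p = 0.0113), by -0.86 for Il15ra (adjusted p = 0.0238), by 0.69 for Il4ra (adjusted p = 0.0155) and by 0.46 for Il21r (adjusted p = 0.0341). Between 12 h and day 5 it moved by -0.86 for Il4ra (adjusted p = 0.0026). Of all genes, 8.12% passed between naive and 12 h and 6.50% between 12 h and day 5. With voom on the recovered reads the moves of Il2ra, Il15ra and Il21r did not pass (adjusted p = 0.0957, 0.0727 and 0.0856). Those of Il15ra and Il21r were also lost under some ways of leaving out 1 library. That of Il21r did not pass without both libraries that stood apart (adjusted p = 0.0523).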

How the results depend on the processing

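Of 200 results, 10 receptors in each of 20 comparisons, 83 were called, and 66 of these were called under every alternative run, 17 were lost under at least 1 and 0 changed sign. Of the 117 not called, 28 were called under at least 1 alternative. The cause of these changes was not tested. For let-7Tg against WT at 12 h the 1 call became 2 with a pseudocount of 0.1 FPKM and 0 without the filter, without the intensity trend, with only the groups compared in the fit, or without both 12 h libraries that stood apart, and 0 to 2 when 1 library was left out. Over all genes the 418 calls became 475, 98, 204, 34 and 137 under these settings in turn, and 5 to 763 when 1 library was left out. For lin28Tg against WT on day 5 the count of 0 became 1 without scaling and 1 with voom, and 0 to 2 when 1 library was left out. Over all genes the 555 calls became 552 without scaling and 555 with voom. For let-7Tg against WT on day 5 it was 0 to 1 when 1 library was left out, 1 without the third WT library, where the calls over all genes went from 129 to 306. For the change of the let-7Tg effect between 12 h and day 5 the count of 0 became 1 without scaling and 1 with median-of-ratios scaling, and 0 to 1 when 1 library was left out. Over all genes the 206 calls became 182 without scaling and 207 with median-of-ratios scaling. For the change of the lin28Tg effect between naive and 12 h the 4 became 1 with voom and 2 to 4 when 1 library was left out. Over all genes the 1173 calls became 170 with voom and 539 to 734 where 2 receptors remained. Between 12 h and day 5 the 1 became 2 without both libraries that stood apart, with 944 calls over all genes in place of 940. When 1 library was left out, lin28Tg against WT at 12 h gave 1 to 2 and lin28Tg against let-7Tg on day 5 gave 3 to 6. Over all genes the 1047 calls at 12 h fell to 376 to 606 where 1 receptor remained. The 2838 calls on day 5 fell to 1719 where 3 receptors remained. Without scaling, the share of higher genes among all called went from 33.1% to 51.0% in naive and from 62.0% to 72.4% in day 5 let-7Tg against WT cells, and from 48.1% to 35.0% in day 5 lin28Tg against let-7Tg CTLs.

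With the replicate number as a block, 2 receptors were called for lin28Tg against WT on day 5, in place of 0, and 1 for let-7Tg against WT. Over all genes the block gave 1750, 515 and 4705 calls on day 5 for lin28Tg against WT, let-7Tg against WT and lin28Tg against let-7Tg, in place of 555, 129 and 2838. In the groups whose numbers did not pair libraries, the block gave 5 in place of 4 receptors for naive and 7 in place of 6 for 12 h lin28Tg against let-7Tg cells. Over all genes it gave 5966 in place of 5778 calls for naive and 3705 in place of 3820 for 12 h cells.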
